A study of Mus musculus with 9 samples.

Results

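The genes described here are 7 complement components and regulators, chosen by name from the deposited table: the membrane regulators Cd55, Cd46 and Cd59a, the soluble regulator Serping1, and the components Cfb, C3 and C4b. They are 7 of 46078 genes in the table, and 7 of 7 passed the filter on low counts, which left 15937 genes to test. RNA-seq was performed on endothelial cells (ECs) sorted from the bone marrow (BM) of B6 wild type mice, with no treatment named in the labels, as 4 libraries of Sca-1+ ECs and 5 libraries of Sca-1- ECs, the fractions that the study also calls high and low. Both fractions were gated as CD45-Ter119-CD31+ cells, and Sca-1, the product of Ly6a, was used in the study to mark arteriolar as opposed to sinusoidal ECs. The mice's age and whether a library came from 1 mouse or from pooled mice are not given in the sources used here, so p-values measure the spread between these libraries.

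Complement is a cascade of plasma proteases that tags and lyses foreign cells. Its classical and lectin pathways cleave C4 and C2, its alternative pathway uses factor B, and all pathways meet at C3. Host cells, ECs among them, are shielded by membrane proteins that break up the C3-cleaving enzymes or block the lytic pore, and by soluble inhibitors, and although the liver makes most of the plasma components, ECs also transcribe several of these genes.

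Libraries are named by the number that ends their label, 7, 13, 15 and 19 for Sca-1+ and 8, 10, 14, 16 and 22 for Sca-1-. Totals were 23058385 to 24657204 counts per Sca-1+ library and 21581653 to 25959818 per Sca-1- library, and 3 counts, taken as the floor, stood for 0.0996 to 0.209 CPM (counts relative to a library's size after TMM scaling). Ly6a averaged 1133 CPM in Sca-1+ and 0.678 CPM in Sca-1- libraries, whereas Pecam1, which encodes CD31, averaged 1399 and 836 CPM (edgeR adjusted p = 0.25). The Sca-1- libraries went against a purely endothelial label: of 25 general endothelial genes 23 were higher in Sca-1+ ECs, with summed levels of 17300 to 20800 CPM against 1460 to 3960 CPM, and of 16 megakaryocyte genes 16 were lower, at 124 to 197 CPM against 32300 to 135000 CPM. The sums of 16 leukocyte genes (14 lower, 366 to 489 against 3480 to 6720 CPM) and 17 erythroid genes (14 lower, 251 to 399 against 2680 to 5990 CPM) were also separated, and none of the genes in these 4 lists was at 0 in all libraries of a fraction. In bulk libraries, fewer cells of a type and less RNA per cell cannot be told apart, and the part of these other cells in the results below was not tested. The first numbers of the labels run in series that do not overlap between the fractions, so that series and fraction cannot be told apart.

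Of the 7 complement genes, 2 were higher in Sca-1+ ECs, Serping1 and Cfb, 0 were lower and 5 did not pass the test (edgeR's quasi-likelihood test over all 15937 genes, Benjamini-Hochberg adjusted p under 0.05, written below as edgeR adjusted p). Among all genes tested, 23.3% were higher and 21.4% were lower in Sca-1+ ECs, so a share of 2 of 7 was near the background. Only Cfb had every Sca-1+ library above every Sca-1- library, as did 24.8% of all genes, and 0 of the 7 had every Sca-1+ library below, as did 18.8%. The median log2 fold change (Sca-1+ over Sca-1-) was 0.60 over the 7 genes and 0.07 over all genes tested. Fold changes below are fitted by edgeR.

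**Figure D1:**
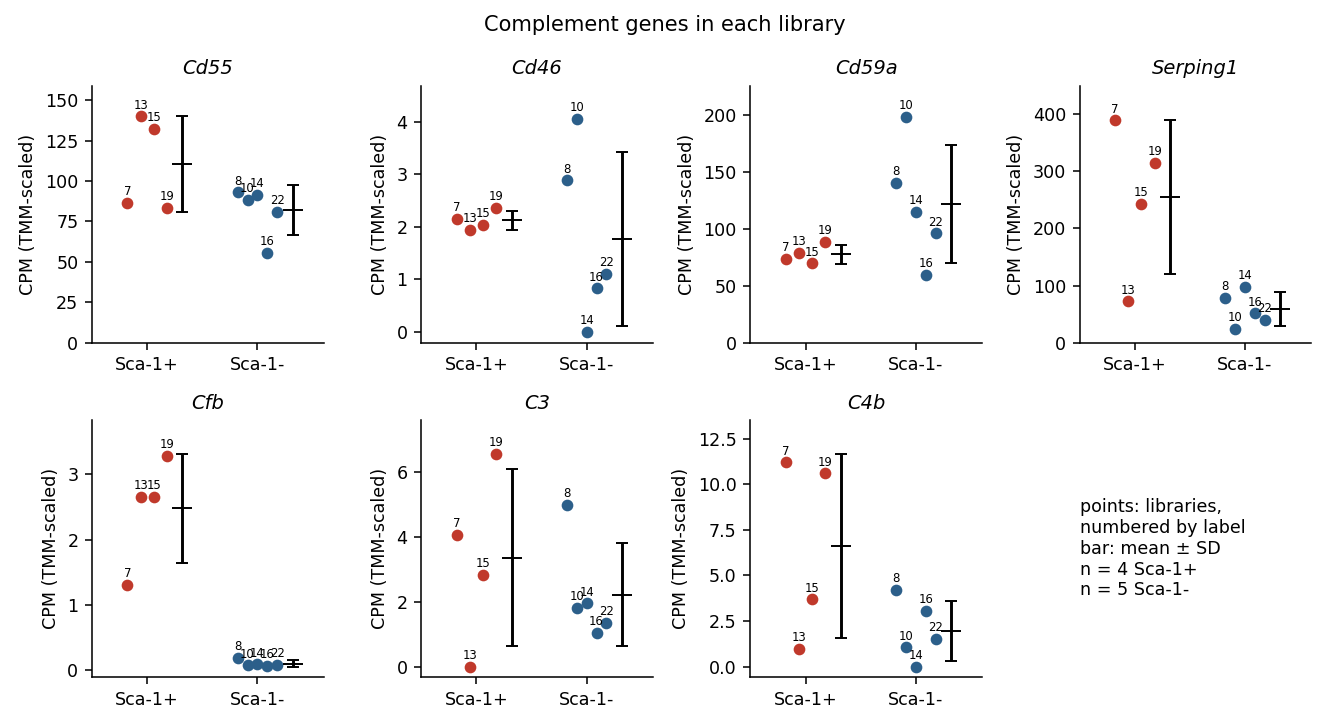
Level of each of the 7 complement genes in every library, in CPM scaled by TMM (vertical axis, linear, a different scale per gene), for 4 Sca-1+ (red) and 5 Sca-1- (blue) libraries numbered by label, with mean ± SD beside them. The red and blue points are apart for Cfb, whereas Serping1 overlaps through Sca-1+ library 13 and the other 5 genes overlap more widely.

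The levels of the 7 genes per kilobase of exon spanned about the same order in both fractions, with Serping1, Cd59a and Cd55 well above the other 4. In Sca-1+ ECs, Serping1 stood at 110 ± 58.2 CPM per kb, Cd59a at 42.8 ± 4.42 and Cd55 at 22.7 ± 6.13 (SD, n = 4). The ranges of Serping1 and Cd59a overlapped in Sca-1+ ECs, while those of Cd59a and Cd55 did not. The other 4 genes were between 0.279 CPM per kb (Cd46) and 1.16 CPM per kb (C4b), and each of them overlapped the next in order. The place of Cfb is uncertain, since most of its exon bases also belong to another gene. Per kilobase of unshared exon it was at 4.28 CPM in Sca-1+ and 0.167 CPM in Sca-1- ECs. In Sca-1- ECs, Cd59a led with 67.2 ± 28.5 CPM per kb, followed by Serping1 at 25.1 ± 12.7 and Cd55 at 16.9 ± 3.17 (SD, n = 5), and these overlapped their neighbours. From Cd55 there was again a gap, down to C3 at 0.433 CPM per kb, and the order ended with Cfb at 0.0342 CPM per kb. Serping1 ranked first in 3 of the 4 Sca-1+ libraries and in none of the Sca-1- libraries, whereas Cd59a ranked first in 5 of 5 Sca-1- libraries and in Sca-1+ library 13.

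**Figure D2:**
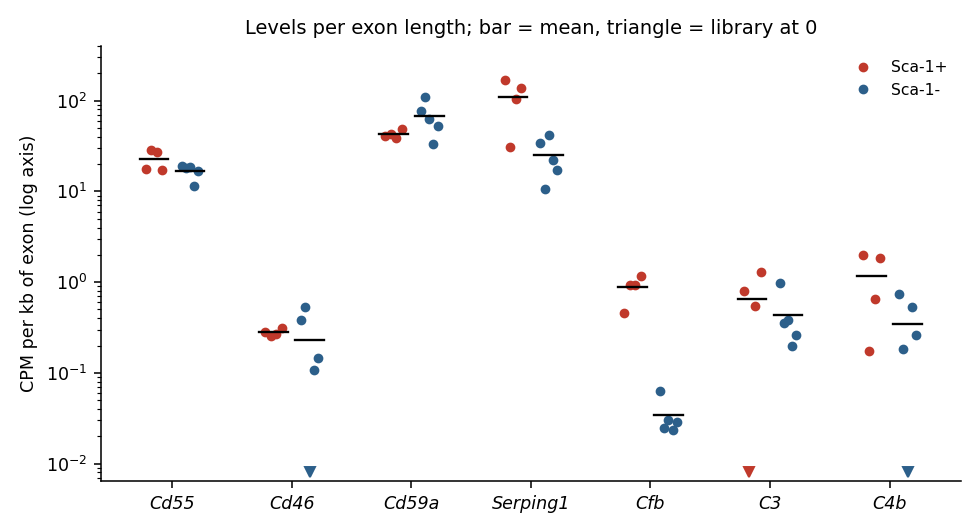
Levels in CPM per kilobase of exon on a log axis, with 1 point per library (red Sca-1+, n = 4, and blue Sca-1-, n = 5), black bars at the fraction's mean and triangles at the lower edge for libraries at 0. Cd55, Cd59a and Serping1 sit above 10 CPM per kb in every library, and the other 4 genes sit below 2, with Cfb taken over all its exon bases, shared ones included.

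Cd55, also called decay-accelerating factor, is a membrane protein that breaks up the C3-cleaving enzymes on the cell's own surface. The gene (ENSMUSG00000026399) lies on the minus strand at chr1:130439027-130462744 (GRCm38). Its level was 86.3, 140, 132 and 83.2 CPM in Sca-1+ libraries 7, 13, 15 and 19, and 93.0, 88.4, 91.5, 55.6 and 81.0 CPM in Sca-1- libraries 8, 10, 14, 16 and 22. Libraries 13 and 15 were above every Sca-1- library, libraries 7 and 19 lay among them, and Sca-1- library 16 was lowest. The means were 110 ± 29.7 (SD, n = 4) against 81.9 ± 15.4 CPM (SD, n = 5), and the log2 fold change of 0.43 ± 0.24 (SE, 95% interval -0.10 to 0.96, edgeR adjusted p = 0.17) did not pass the test. With library size alone as the scaling, it was 0.86 and did (edgeR adjusted p = 0.03), a setting that moved the median of all genes from 0.07 to 0.43. With libraries scaled to the summed general endothelial genes, which moved that median to -3.16, Cd55 passed in the other direction at -2.73 (edgeR adjusted p = 2.4e-05). That sum leaned unevenly on Esam and Myct1 in Sca-1- libraries. These were at 2380 and 1180 of 3960 CPM in library 10, and at 303 and 127 of 1460 CPM in library 16. The endothelial scaling is therefore not an even measure of endothelial content, here and below.

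Mouse genomes carry a second copy of Cd55 that lies next to it, Cd55b (ENSMUSG00000026401), which was at 0 to 4 counts in each library and was not tested. Since 8% of the 50-base windows in Cd55 transcripts also occur in another gene, all of them in Cd55b, reads from those windows cannot be placed. The neighbouring promoters are shown because their genes share sequence and yet differed in level by this much, as the 250 bases upstream of each RefSeq start (GRCm38.p6, minus strand, 5′ to 3′), at chr1:130462745-130462994 for Cd55 and chr1:130423044-130423293 for Cd55b. Capitals mark matches to the GC box GGGCGG, to TATAAA or to CCAAT, each searched on both strands.
Cd55: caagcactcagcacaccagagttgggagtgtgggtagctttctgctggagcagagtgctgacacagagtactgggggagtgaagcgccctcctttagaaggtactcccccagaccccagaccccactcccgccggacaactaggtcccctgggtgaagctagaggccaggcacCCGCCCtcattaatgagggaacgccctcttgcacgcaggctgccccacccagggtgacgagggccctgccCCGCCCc
Cd55b: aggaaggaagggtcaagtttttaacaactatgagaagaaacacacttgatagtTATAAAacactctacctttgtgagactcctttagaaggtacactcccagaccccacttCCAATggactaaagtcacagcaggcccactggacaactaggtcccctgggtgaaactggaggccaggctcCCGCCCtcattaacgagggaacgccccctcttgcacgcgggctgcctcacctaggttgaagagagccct
The Cd55 window held 2 GC boxes and neither of the other motifs, and the Cd55b window held 1 of each. Over all 32851 RefSeq promoters, windows of this length held a GC box in 32.7%, TATAAA in 12.4% and CCAAT in 33.8%. Aligned end to end, the pair was identical at 179 of 250 bases (71.6%), whereas the unrelated windows of Cd55 and Cd59a were identical at 57.6%. These matches describe the letters and are not shown to be sites.

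Cd46, membrane cofactor protein, helps to inactivate C3b and C4b on the cell's surface and in mice is best known from the testis. The gene (ENSMUSG00000016493) lies on the minus strand at chr1:195036826-195092249, and 14.2% of its exon bases are overlapped by A330023F24Rik on the other strand, so that without a stated use of strand their reads cannot be told apart. Counts were 63, 57, 59 and 61 in the Sca-1+ libraries and 48, 58, 0, 25 and 27 in the Sca-1- libraries. The Sca-1+ counts lay within a few reads of each other, and the Sca-1- counts ran from the 0 of library 14 to the 58 of library 10. Means were 2.12 ± 0.181 (SD, n = 4) against 1.77 ± 1.65 CPM (SD, n = 5), a log2 fold change of 0.27 ± 0.96 (SE, 95% interval -1.85 to 2.39, edgeR adjusted p = 0.84). Without library 14 the log2 fold change turned to -0.20, also short of the threshold (edgeR adjusted p = 0.80). At this depth, differences inside that interval were not detectable.

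Cd59a, also known as protectin, blocks the lytic pore on the cell's own membrane. The gene (ENSMUSG00000032679) lies on the plus strand at chr2:104095801-104115354. Its level was 73.6, 78.6, 69.6 and 88.2 CPM in Sca-1+ libraries 7, 13, 15 and 19, and 140, 198, 115, 59.7 and 96.0 CPM in Sca-1- libraries 8, 10, 14, 16 and 22. Every Sca-1+ library was below 4 of the 5 Sca-1- libraries and above library 16. The means were 77.5 ± 8.01 (SD, n = 4) against 122 ± 51.6 CPM (SD, n = 5), and the log2 fold change of -0.65 ± 0.31 (SE, 95% interval -1.34 to 0.04, edgeR adjusted p = 0.11) did not pass the test. Without library 16 the log2 fold change was -0.83 and passed (edgeR adjusted p = 0.023). The scaling mattered as well. With library size alone, Cd59a was at -0.13 and did not pass (edgeR adjusted p = 0.68), and with the endothelial scaling it passed at -3.67 (edgeR adjusted p = 4.9e-07). The order of the Sca-1- libraries by Cd59a, 10, 8, 14, 22 and 16, was also their order by the summed megakaryocyte genes (135000, 110000, 65600, 44000 and 32300 CPM), whose part in the level of Cd59a was not tested. The TMM factors, by which both of these levels are divided, rose in the same order (0.5805, 0.6713, 0.9884, 1.139 and 1.162). Before that scaling, library 8 had fewer Cd59a counts (2330 of 24821147) than library 14 (2711 of 23869550) or library 22 (2358 of 21581653). The shared order therefore depended on the scaling.

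Its neighbouring paralog Cd59b (ENSMUSG00000068686) was lower in Sca-1+ ECs, with 0.443, 1.26, 0.483 and 0.968 CPM in libraries 7, 13, 15 and 19 against 29.1, 23.5, 16.6, 10.9 and 9.85 CPM in libraries 8, 10, 14, 16 and 22. Here the fractions did not overlap, and the log2 fold change was -4.50 ± 0.53 (SE, edgeR adjusted p = 1.3e-04). The reads of Cd59b made up 0.988 ± 0.447% of the reads of both paralogs in Sca-1+ ECs (SD, range 0.599 to 1.58%, n = 4) and 13 ± 3.27% in Sca-1- ECs (SD, range 9.31 to 17.2%, n = 5). This ratio, which does not depend on the scaling of the libraries, was chosen with 2 others after their values were seen, and the ratios are given as a description with no test. The paralogs share 3.87% of the 50-base windows of Cd59a, fewer than Cd55 and Cd55b share.

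The promoters of this pair are shown because the genes lie side by side and their reads divided so differently between the fractions. They are the 250 bases upstream of each RefSeq start (GRCm38.p6, plus strand, 5′ to 3′), at chr2:104095551-104095800 for Cd59a and chr2:104070816-104071065 for Cd59b. In the GENCODE annotation Cd59a starts right after its window, at 104095801. Cd59b starts before its window, at 104069849, so that window lies inside the annotated gene and the 2 windows are not placed alike.
Cd59a: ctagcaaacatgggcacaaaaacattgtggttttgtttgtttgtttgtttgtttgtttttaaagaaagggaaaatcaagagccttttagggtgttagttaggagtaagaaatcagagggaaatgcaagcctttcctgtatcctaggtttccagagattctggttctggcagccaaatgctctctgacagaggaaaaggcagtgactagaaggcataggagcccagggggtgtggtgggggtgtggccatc
Cd59b: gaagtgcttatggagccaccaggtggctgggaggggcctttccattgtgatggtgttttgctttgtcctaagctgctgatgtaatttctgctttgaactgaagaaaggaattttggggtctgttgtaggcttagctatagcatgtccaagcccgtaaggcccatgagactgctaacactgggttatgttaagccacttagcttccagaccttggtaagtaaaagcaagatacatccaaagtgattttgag
Neither window held a GC box, TATAAA or CCAAT on either strand, hence no capitals. End to end they were identical at 60.8% of bases, against 71.6% for Cd55 and Cd55b and 55.6% for the unrelated windows of Cd55b and Cd59b. Of the remaining members, Cd46 and C3 have a RefSeq promoter in the table used, and Serping1, Cfb and C4b were not matched.

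Since Cd55 and Cd59a act at opposite ends of the cascade, their ratio within a library was also taken, per kilobase of exon. It was 0.540 ± 0.172 in Sca-1+ ECs (SD, range 0.352 to 0.708, n = 4) and 0.275 ± 0.0702 in Sca-1- ECs (SD, range 0.167 to 0.347, n = 5). Neither gene passed the test alone, and the ranges of their ratio came close without overlapping. The closest pair was Sca-1+ library 19 at 0.352 and Sca-1- library 16 at 0.347.

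**Figure D3:**
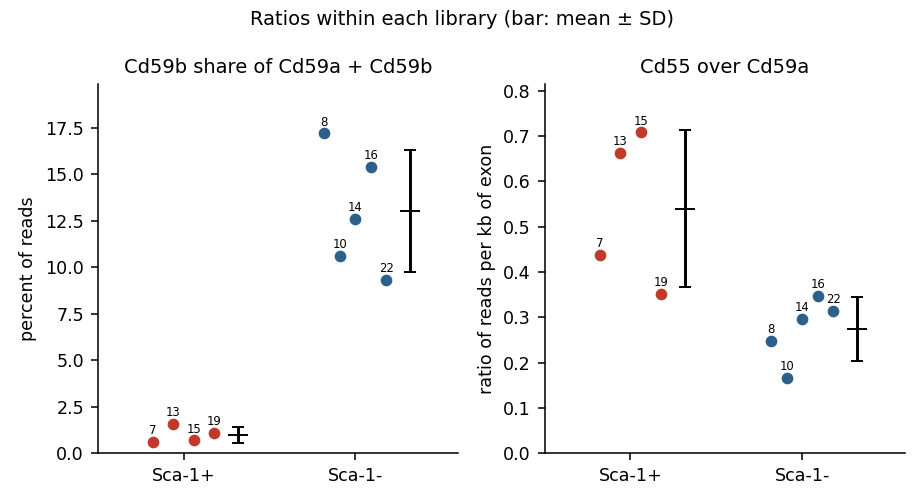
Ratios taken within each library, with 1 point per library (red Sca-1+, n = 4, and blue Sca-1-, n = 5) and mean ± SD beside them, as the percentage of Cd59a and Cd59b reads that fell on Cd59b (left) and as Cd55 over Cd59a in reads per kilobase of exon (right). The Cd59b share was at most 1.58% in Sca-1+ and at least 9.31% in Sca-1- libraries, and the ratio of Cd55 to Cd59a was at least 0.352 and at most 0.347.

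Serping1 encodes C1 inhibitor, the soluble protein that inactivates C1r and C1s and also restrains the contact system that releases bradykinin. The gene (ENSMUSG00000023224) lies on the minus strand at chr2:84765387-84775444, and none of its 50-base windows occurs in another gene. Its level was 389, 72.4, 243 and 315 CPM in Sca-1+ libraries 7, 13, 15 and 19, and 78.4, 24.6, 97.8, 51.1 and 39.9 CPM in Sca-1- libraries 8, 10, 14, 16 and 22. Libraries 7, 15 and 19 were far above every Sca-1- library, whereas library 13 was below Sca-1- libraries 8 and 14. The means were 255 ± 135 (SD, n = 4) against 58.4 ± 29.5 CPM (SD, n = 5), a 4.37-fold difference (95% interval 2.00 to 9.52) and a log2 fold change of 2.13 ± 0.51 (SE, edgeR adjusted p = 0.0065). Leaving out any single library kept the call, with log2 fold changes of 1.85 to 2.44 (edgeR adjusted p of 0.0021 to 0.022).

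With libraries scaled to the summed endothelial genes, however, the log2 fold change of Serping1 turned to -1.14 (edgeR adjusted p = 0.082), 2.02 above the median of all genes under that scaling. Among only the 6 libraries with consecutive end numbers, the log2 fold change was 1.63 and did not pass (edgeR adjusted p = 0.074).

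Within the Sca-1+ libraries, Serping1 followed the order of the 15 marrow stromal and fibroblast genes, whose summed level was 3020 CPM in library 7, 2560 in library 19, 1740 in library 15 and 880 in library 13. C4b had the same order, at 11.2, 10.6, 3.69 and 0.988 CPM in libraries 7, 19, 15 and 13. In the Sca-1- libraries the orders differed, since Serping1 was highest in library 14, which had the lowest stromal sum (3350 CPM, of which Col1a1 and Col1a2 made up 2960 CPM). Between the fractions, 5 of the 15 stromal genes were higher and 2 lower in Sca-1+ ECs, and none was at 0 throughout a fraction. Their sum was 880 to 3020 CPM in Sca-1+ and 3350 to 42300 CPM in Sca-1- libraries, of which Col1a1 and Col1a2 made up 50.2 to 634 CPM and 2960 to 40700 CPM. The other 13 stromal genes summed to 830 to 2660 CPM in Sca-1+ and 284 to 1640 CPM in Sca-1- libraries, with overlap. By this sum library 14 was not the lowest, with 1640, 284, 395, 758 and 395 CPM in Sca-1- libraries 8, 10, 14, 16 and 22. This split of the list was made after its values were seen. Much of the sum came from Cxcl12, at 1620 of 2660 CPM in Sca-1+ library 7 and 891 of 1600 CPM in library 15. Dcn and Lum went up to 554 and 382 CPM in Sca-1- libraries, against 175 and 85.1 CPM in Sca-1+ libraries. Of 12 smooth muscle and pericyte genes, 8 were higher in Sca-1+ ECs and 1 was lower, with sums of 715 to 1780 CPM against 242 to 540 CPM and again none at 0 throughout a fraction. The part of stromal or mural cells in the level of Serping1 was not tested.

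**Figure D4:**
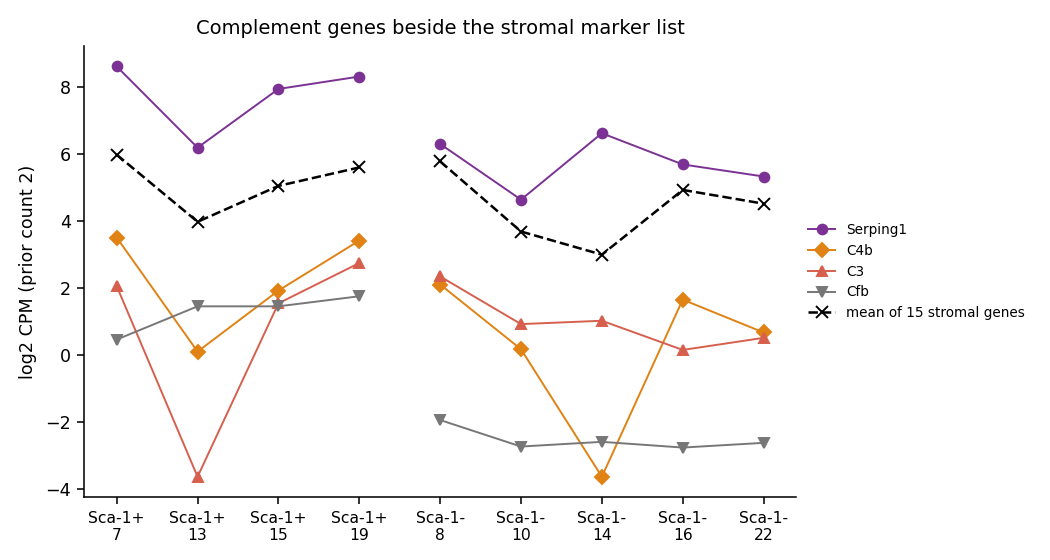
Log2 CPM (prior count 2) of Serping1, C4b, C3 and Cfb in each of the 9 libraries, with the mean over 15 stromal genes as a dashed line. Lines only join libraries of a fraction, a count of 0 plots at -3.63, and in the Sca-1+ libraries Serping1 and C4b dip with the stromal mean in library 13 while Cfb does not.

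Cfb encodes factor B, which carries the protease of the alternative pathway's C3-cleaving enzyme. The gene (ENSMUSG00000090231) lies on the minus strand at chr17:34856374-34862518, among the complement genes of the major histocompatibility complex. Counts were 38, 78, 77 and 85 in Sca-1+ libraries 7, 13, 15 and 19, and 3, 1, 2, 2 and 2 in Sca-1- libraries 8, 10, 14, 16 and 22. Every Sca-1- library was at or under the floor of 3 counts, and the lowest Sca-1+ library was well clear of it. Pooled by fraction, 278 counts stood against 10, a ratio of 26.8 per library size (95% counting interval 14.3 to 56.4). The means were 2.48 ± 0.842 (SD, n = 4) against 0.0965 ± 0.0474 CPM (SD, n = 5), and the fitted log2 difference was 4.64 ± 0.55 (SE, 95% interval 3.41 to 5.87, edgeR adjusted p = 1.4e-04).

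The difference in Cfb kept its direction and its call under every scaling tried. It was 1.57 on the log2 scale with libraries scaled to the endothelial genes (edgeR adjusted p = 0.046), and 4.47 to 4.87 when single libraries were left out. Unlike Serping1, it did not follow the stromal genes, since library 7, with the highest stromal sum, had the lowest Cfb of the Sca-1+ libraries. The level of Cfb is uncertain, because 79.5% of its exon bases also belong to Gm20547, a read-through gene on the same strand that was at 0 in all 9 libraries, and how reads in shared exons were counted is not given in the sources used here. C2, the classical pathway's counterpart of factor B and the other gene under Gm20547, was at 2.35 ± 1.90 (SD, n = 4) against 1.56 ± 0.808 CPM (SD, n = 5) and did not pass (edgeR adjusted p = 0.51).

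C3 is the central component, cleaved by all pathways. The gene (ENSMUSG00000024164) lies on the minus strand at chr17:57203970-57228136. Counts were 119, 0, 82 and 170 in Sca-1+ libraries 7, 13, 15 and 19, and 83, 26, 46, 31 and 33 in Sca-1- libraries 8, 10, 14, 16 and 22. The Sca-1+ libraries held both the highest value and the 0, which at the depth of library 13 allows up to 0.102 CPM. With means of 3.37 ± 2.73 (SD, n = 4) against 2.23 ± 1.59 CPM (SD, n = 5), the log2 fold change of 0.60 ± 1.03 (SE, 95% interval -1.69 to 2.89, edgeR adjusted p = 0.66) did not pass, and its sign turned in 4 of 20 alternatives.

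C4b encodes the component C4, cleaved by C1s and by the lectin pathway's proteases. The gene (ENSMUSG00000073418) lies on the minus strand at chr17:34728380-34743882. Its level was 11.2, 0.988, 3.69 and 10.6 CPM in Sca-1+ libraries 7, 13, 15 and 19, and 4.20, 1.05, 0, 3.05 and 1.51 CPM in Sca-1- libraries 8, 10, 14, 16 and 22. Libraries 7 and 19 were above every Sca-1- library, and library 13 was near the bottom of the Sca-1- range. The means of 6.63 ± 5.08 (SD, n = 4) against 1.96 ± 1.67 CPM (SD, n = 5) gave a log2 fold change of 1.75 ± 1.04 (SE, 95% interval -0.56 to 4.07, edgeR adjusted p = 0.20), which did not pass. Since 34.6% of its 50-base windows also occur in C4a, which was at 0 to 14 counts per library and was not tested, the level of C4b may include or lack reads of that copy.

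To place these 7 genes, 48 other complement genes were read from the same fit. Of these, 7 were at 0 in all libraries and 27 were tested, of which 6 were higher and 5 lower in Sca-1+ ECs, beside 23.3% and 21.4% of all genes, with a median log2 fold change of 0.30. Of the 7 classical pathway genes tested, 2 were higher and 5 did not pass. C1qa, C1qb and C1qc were among these 5, with log2 fold changes of -0.4, -0.23 and -0.51. The 2 were the proteases C1ra and C1s1, both targets of C1 inhibitor and higher like Serping1 itself. C1ra averaged 11.9 ± 2.70 against 1.42 ± 0.561 CPM (log2 fold change 3.06, edgeR adjusted p = 1.9e-04) and C1s1 26.4 ± 15.7 against 1.28 ± 0.86 CPM (log2 fold change 4.36, edgeR adjusted p = 6.4e-04). For both, the 4 Sca-1+ libraries lay above the 5 Sca-1- libraries, and library 13 was lowest of the Sca-1+ libraries, as it was for Serping1. Each has a near copy in the genome, and 18.4% of the exon bases of C1s1 are overlapped by an antisense gene. Under the endothelial scaling C1ra turned to -0.13 on the log2 scale and C1s1 was 1.17 (edgeR adjusted p = 0.83 and 0.15).

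Factor D (Cfd), the protease that cleaves factor B, was higher in Sca-1+ ECs as Cfb was. It had 311, 825, 782 and 433 counts in Sca-1+ libraries 7, 13, 15 and 19, and 0, 1, 0, 82 and 2 in Sca-1- libraries 8, 10, 14, 16 and 22. Library 16 held nearly all the Sca-1- counts, and the fractions did not overlap. The log2 fold change was 5.06 (edgeR adjusted p = 0.0097), and without library 16 it was 8.90, which depends on the prior count since the other Sca-1- libraries are under the floor. Unlike Cfb, Cfd lost its call under the endothelial scaling (1.52, edgeR adjusted p = 0.32) and in the 6 libraries with consecutive end numbers (4.52, edgeR adjusted p = 0.073, against 0.0057 for Cfb). With these 6 libraries blocked by consecutive number both passed, Cfd at 6.5 (edgeR adjusted p = 0.041) and Cfb at 4.3 (edgeR adjusted p = 0.032). Properdin (Cfp), which stabilizes the same enzyme, was lower at 1.69 ± 1.06 against 6.88 ± 4.99 CPM (log2 fold change -2.03, edgeR adjusted p = 0.041), with overlapping fractions. Its call was lost in 5 of the 9 fits that left out a library, those without Sca-1+ library 7, 13 or 15 or without Sca-1- library 8 or 16, with log2 fold changes of -2.09, -1.82, -1.80, -2.07 and -1.55.

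Among the other regulators, the membrane protein Cr1l (also called Crry), the rodent regulator that does the work of Cd55 and Cd46 together, was higher in Sca-1+ ECs. Its level was 134, 164, 163 and 156 CPM against 78.3, 101, 66.7, 76.5 and 74.8 CPM, with no overlap (log2 fold change 0.96 ± 0.18 SE, edgeR adjusted p = 0.0018), and turned to -2.20 under the endothelial scaling. Per kilobase, the ratio of Cr1l to Cd55 was 0.684 ± 0.152 in Sca-1+ (SD, n = 4) and 0.470 ± 0.121 in Sca-1- libraries (SD, n = 5), and the ranges overlapped. Of the soluble inhibitors of the lytic pore, vitronectin (Vtn) was higher, at 17.5 ± 16.4 against 0.229 ± 0.375 CPM (log2 fold change 6.14, edgeR adjusted p = 0.0058), and clusterin (Clu) lower, at 276 ± 90.4 against 3420 ± 1550 CPM (log2 fold change -3.63, edgeR adjusted p = 2.1e-04). The fractions overlapped for Vtn, with Sca-1+ library 13 at 0.613 CPM and Sca-1- library 16 at 0.863 CPM. Its call was lost under the endothelial scaling (2.84, edgeR adjusted p = 0.087) and in the 6 libraries with consecutive end numbers (5.13, edgeR adjusted p = 0.075), and its log2 fold change was 8.18 without library 16. Vtn kept its call in the other 18 alternatives, the same 6 libraries blocked by consecutive number among them.

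Of the 5 receptors tested, 1 was higher and 2 were lower in Sca-1+ ECs, and C5ar1 (log2 fold change 1.27, edgeR adjusted p = 0.24) and Itgam (-1.97, edgeR adjusted p = 0.24) did not pass. C5ar2, a receptor for C5a that does not couple to G proteins, was higher in Sca-1+ ECs, at 6.74 ± 2.44 against 0.615 ± 0.721 CPM (log2 fold change 3.40, edgeR adjusted p = 0.012), and was -0.12 under the endothelial scaling. C3ar1, the receptor for C3a, and Itgb2, the integrin subunit shared by complement receptors of leukocytes, were lower. C3ar1 had 7 counts over all Sca-1+ libraries against 5127 over all Sca-1- libraries, a ratio of 761 in favour of Sca-1- (95% counting interval 369 to 1890, edgeR adjusted p = 2.3e-05). Itgb2 averaged 2.28 ± 3.59 against 635 ± 274 CPM (log2 fold change -8.13, edgeR adjusted p = 3.8e-04), and is itself 1 of the 16 leukocyte genes, 14 of which were lower. Of the 4 lectin pathway and 2 terminal pathway genes tested, 0 passed in either direction, with Masp1 nearest at a log2 fold change of 2.83 (edgeR adjusted p = 0.059).

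**Figure D5:**
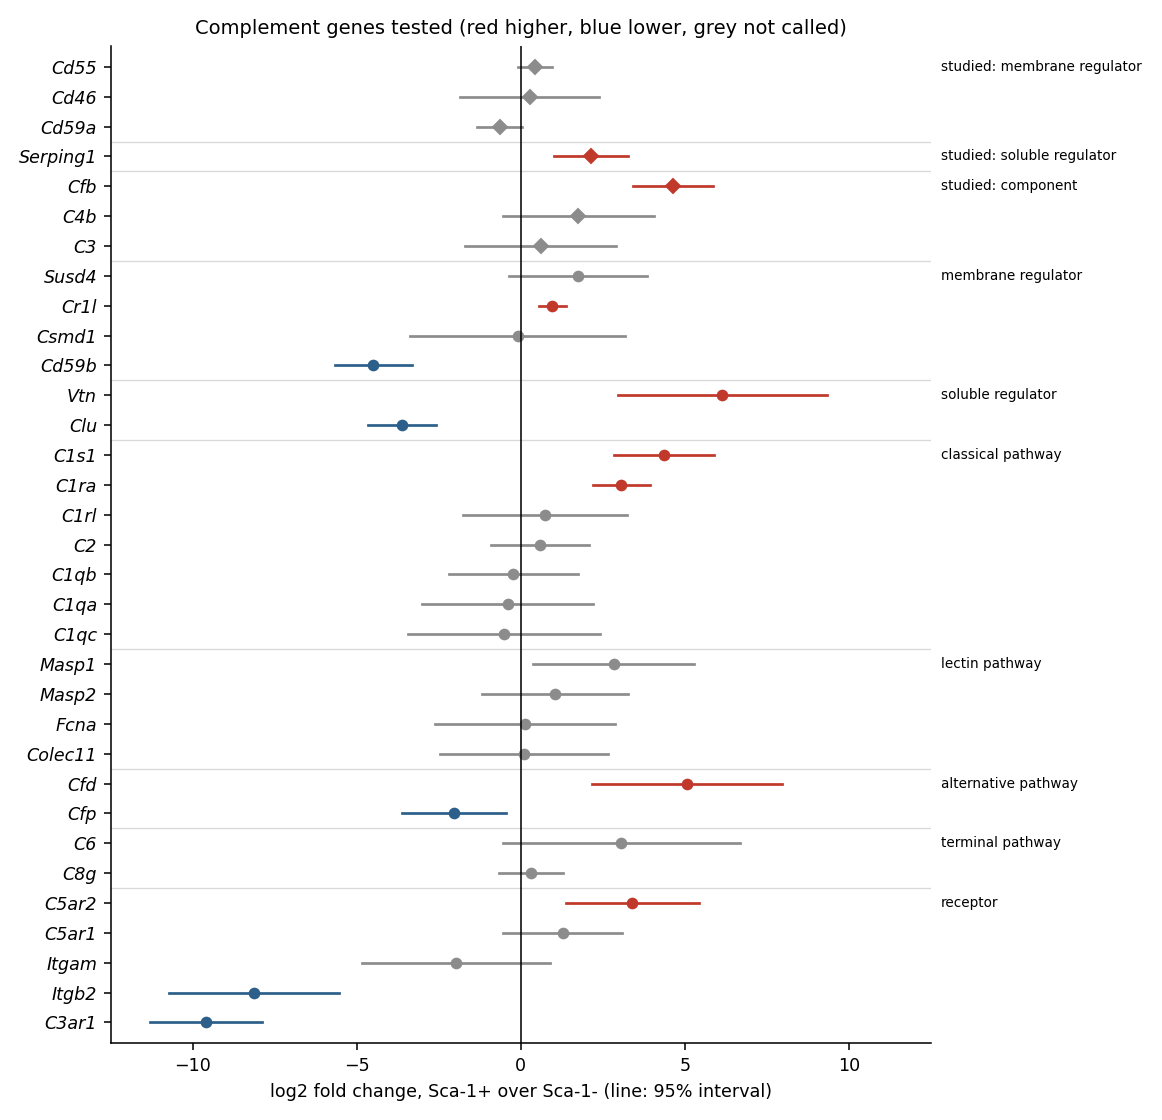
Log2 fold change, Sca-1+ over Sca-1-, with its 95% interval for the 7 genes studied (diamonds) and the other complement genes reported here that were tested (circles), grouped by role. Red marks genes higher and blue genes lower in Sca-1+ ECs at an adjusted p under 0.05, and of the diamonds Serping1 at 2.13 and Cfb at 4.64 are red and the other 5 are grey.

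The genes whose log2 CPM ran most closely with each of the 7 across the 9 libraries, among genes with an average log2 CPM of at least 3, are given as a description, since the points share library and fraction. For Serping1 this was Cxcl12 (Pearson r = 0.956), 1 of the 15 stromal genes and the chemokine that retains stem cells in the marrow, at 917 ± 539 against 171 ± 107 CPM (edgeR adjusted p = 0.0071), and then Med23 (r = 0.947). For Cfb they were Rras (r = 0.995) and Pltp (r = 0.990), both higher in Sca-1+ ECs with log2 fold changes of 2.57 and 4.45 (edgeR adjusted p = 3.8e-05 and 2.4e-05). Cd59a ran with Actr1a (r = 0.991) and Crebl2 (r = 0.983), Cd55 with 2200002D01Rik (r = 0.900) and Clca3a1 (r = 0.886), and Cd46 with Fam199x (r = 0.972) and Npc1 (r = 0.971). C3 ran with Tnc (r = 0.935) and Usp6nl (r = 0.905), and C4b with Gas1 (r = 0.975) and Fkbp14 (r = 0.953). None of the genes named for Cd55, Cd46, Cd59a, C3 or C4b passed the test between the fractions (edgeR adjusted p of 0.053 to 0.95).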

How the data were processed

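RNA-seq libraries of BM ECs from 4 Sca-1+ and 5 Sca-1- samples were analysed, grouped by the deposited labels. RNA was extracted with the miRNeasy micro kit and libraries were made from 2 ng of total RNA with the SMART-Seq v4 Ultra Low Input kit, without molecular identifiers, so floors and counting intervals cover counting error only. The authors deposited one table of raw read counts per gene, and the submitters' processing notes name STAR, featureCounts and mm10. Versions, annotation and strand setting are not given in the sources used here.

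Genes passed filterByExpr of edgeR 4.0.16 in R 4.3.3 (minimum count 10, minimum total 15), libraries were scaled by TMM, and fractions were compared with the two-sided quasi-likelihood F-test of edgeR, whose p-values were adjusted by Benjamini and Hochberg's method over the 15937 genes and called under 0.05. The common dispersion was 0.301 (biological coefficient of variation 0.549). Log2 CPM used a prior count of 2. The code was tested on simulated data. Alternatives used DESeq2 1.42.0, limma 3.58.1 (voom), other scalings and filters, blocks, and fits without single libraries.

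Of the complement genes tested, 1 is counted but not reported here. The members and all lists were chosen with earlier results of these data known. Named genes were every member, every other complement gene past the threshold, near-copies and overlapping genes of members, and the 2 genes most correlated with each member. C1qa, C1qb, C1qc, Masp1, C5ar1, Itgam, the ratios and the marker genes named singly were chosen after their values were seen. Ly6a and Pecam1 were added as a check of the sort. Exons and coordinates came from GENCODE M21 (GRCm38), and promoters from RefSeq (GRCm38.p6) through Biopython 1.88 in Python 3.11.15. No library was a copy of another (chi-square per degree of freedom between libraries of a fraction, 28.5 to 424). Plots were drawn with matplotlib 3.10.9.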

Additional observations from a re-analysis of the deposited data

Results flagged for a closer look

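Values far from the others of their fraction were looked for in 36 groups of libraries (log2 CPM of a gene in a fraction) and found in 4, where chance gives about 1 in 20. Cd55 was at 5.80 in Sca-1- library 16, with the other Sca-1- libraries at 6.34 to 6.54. Cfb was at -1.94 in Sca-1- library 8, from 3 counts, with the others at -2.76 to -2.59 from 1 or 2 counts, a difference within counting error. Cfd was at 1.49 in Sca-1- library 16, with the others at -3.63 to -2.62. Itgb2 was at 2.95 in Sca-1+ library 19, with the others at -1.01 to -0.68, and that library also had the highest sum of neutrophil genes of its fraction (798 CPM, where the lowest was 9.46 CPM). Without library 19 the log2 fold change of Itgb2 was -10.35.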

How the results depend on the processing

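Of 140 values (7 complement genes under 20 alternatives), 126 kept their direction and their side of the threshold. Scaled to the endothelial genes, 13147 genes passed, 2.4% of them higher in Sca-1+ ECs, and 4 of the 7 passed, Cd55 (-2.73), Cd46 (-2.57), Cd59a (-3.67) and Cfb (1.57 on the log2 scale). Under this scaling Cd55, Cd46, Serping1 (-1.14), C3 (-2.45), C4b (-1.48), C1ra (-0.13), Cr1l (-2.20) and C5ar2 (-0.12) changed sign. Its reference sum leaned unevenly on Esam and Myct1 in the Sca-1- libraries, as given for Cd55. With library size only, Cd55 passed at 0.86, and 63.1% of the genes that passed were higher in Sca-1+ ECs, against 52.1% with TMM. With limma voom C3 was -0.81. Leaving out each library in turn gave 2 to 3 of the 7 passing, with Cd46 at -0.20 to 0.75 and Cd59a at -0.83 to -0.47.

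Libraries 15 and 16 carry a further number in common in their labels, whose meaning is not given. With these as a block in all 9 libraries, the calls of the 7 were the same, Cfd moved to 7.16 and Cfp lost its call (edgeR adjusted p = 0.072). The labels of libraries 8, 15, 16 and 19 also hold the letters wt. Those of libraries 13, 14 and 22 hold another tag instead. Library 10 has a shorter form of that tag, and library 7 has neither. Library 13, the only Sca-1+ library with the tag, had the lowest Cd46, Serping1, C3 and C4b of its fraction. It also had the highest Cd55, with Cd59a and Cfb in between. The part of the tag in these levels was not tested. Taking consecutive end numbers as pairs (6 libraries), deviations from the fraction means correlated by 0.147, 0.148 and 0.0420. With this replicate block 4340 genes passed and 1 of the 7 did, with Serping1 at 1.43 (edgeR adjusted p = 0.16) and C3 at -0.96. Without the block the same 6 libraries also gave 1 of the 7, with Serping1 at 1.63 and C3 at -0.21. Over all alternatives properdin lost its call in 9. Counts were lowest for Cd46, Cfb, C3 and C4b, at 0 to 330 per library, and the cause of these changes was not tested.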

Other observations

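Some of the 7 complement genes varied together after the mean of each fraction was taken out, given as Pearson r over 9 libraries that share depth and preparation. Serping1 and C3 had r = 0.794, and both were lowest of the Sca-1+ libraries in library 13, where C3 had 0 counts. Cd46 and C4b had r = 0.725, and both had 0 counts in Sca-1- library 14. C3 and C4b had r = 0.500, Cd55 and Cd59a r = 0.483, and Cd55 and C4b r = -0.577. For Serping1 and Cfb, the 2 genes that were higher in Sca-1+ ECs, r was -0.044 within fractions against 0.757 over all libraries.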
